A study of Mus musculus with 8 samples.

Results

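A set of 10 genes of astrocytes and Bergmann glia were followed on the arrays of cerebellar cultures treated with T3, the active thyroid hormone, or left untreated. They were chosen by name, and every probe-set whose single gene symbol was one of these names was taken, which gave 34 probe-sets among 45037 and 10 genes among 18193. A probe-set is a group of probes on the array that reads 1 or more transcripts, and several can read the same gene. The values are signal intensities on a linear scale, each array having been scaled to the same trimmed mean. Levels of different probe-sets cannot be compared with each other, so each gene is compared with itself across arrays. Where signals of a gene list are summed, the sum is compared only with itself across arrays. Such a sum is set mainly by the brightest probe-sets of the list and need not describe its other genes.

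The cells came from the pooled cerebella of wild-type pups (P4 to P7 in the sample labels, P1 to P4 in the methods), whose strain is not given in the sources used here. They were kept 48 h in serum-free Neurobasal medium with B27 supplement, which the methods say favours neurons over glia. The sources used here do not give the T3 content of this medium, so untreated means without added T3. T3 was then added at 0.1 µM, and cells were taken after 6, 16, 24 or 48 h, while untreated cultures had the same changes of medium. Transcripts of granule neurons were present on every array (Neurod1 at 266 to 2672, Rbfox3 at 142 to 1683), and so were those of glia. Each of the 4 time points had 1 T3 culture and 1 untreated culture from the same batch of cells, so there were 8 arrays and 1 array per condition. A difference between 2 arrays at 1 time point therefore has no error and no test. In such mixed cultures, fewer cells of a type and less RNA per cell cannot be told apart.

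Astrocytes clear glutamate, potassium and water from the space around neurons and are coupled to each other by gap junctions. Bergmann glia are the radial astrocytes of the cerebellum, along whose fibres granule neurons migrate inwards. Among the 10 genes, Slc1a3 (GLAST) and Slc1a2 (GLT-1) encode the glial glutamate transporters, Aqp4 the water channel, Gja1 the gap junction protein connexin 43 and Ttyh1 a Tweety family membrane protein of glia and neural stem cells. Gfap encodes an intermediate filament, Fabp7 a lipid-binding protein of radial and Bergmann glia, S100b a calcium-binding protein, Aldoc the brain isoform of aldolase and Aldh1l1 a folate enzyme.

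The stretches of 250 bases before the RefSeq transcription start (GRCm38.p6) of 4 of the genes follow as a description, because T3 acts through receptors that bind DNA. Capitals mark AGGTCA, the hexamer that T3 receptors bind, or TTCNNNGAA, the STAT site, on either strand.
Gfap (chr11:102897201-102897450, minus strand): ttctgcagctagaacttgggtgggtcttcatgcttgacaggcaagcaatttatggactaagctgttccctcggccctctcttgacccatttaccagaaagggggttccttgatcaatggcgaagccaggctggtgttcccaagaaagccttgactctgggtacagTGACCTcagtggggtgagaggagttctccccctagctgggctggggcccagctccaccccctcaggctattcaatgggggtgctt
Fabp7 (chr10:57784673-57784922, plus strand): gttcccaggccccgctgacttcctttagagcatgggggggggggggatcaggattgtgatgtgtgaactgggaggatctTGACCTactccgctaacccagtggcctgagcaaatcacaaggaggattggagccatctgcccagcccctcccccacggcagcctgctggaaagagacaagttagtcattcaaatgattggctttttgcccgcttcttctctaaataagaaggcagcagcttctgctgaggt
Slc1a3 (chr15:8710808-8711057, minus strand): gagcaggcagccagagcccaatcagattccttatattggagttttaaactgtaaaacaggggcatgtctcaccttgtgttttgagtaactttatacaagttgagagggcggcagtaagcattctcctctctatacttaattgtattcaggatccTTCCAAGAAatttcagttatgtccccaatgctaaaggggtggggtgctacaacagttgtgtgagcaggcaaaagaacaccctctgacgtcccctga
Gja1 (chr10:56377050-56377299, plus strand): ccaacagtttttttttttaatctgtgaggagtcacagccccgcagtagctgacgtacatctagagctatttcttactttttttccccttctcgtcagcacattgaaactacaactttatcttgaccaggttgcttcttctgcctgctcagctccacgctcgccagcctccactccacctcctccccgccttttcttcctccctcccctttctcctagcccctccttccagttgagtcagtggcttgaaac
The promoter table held 10 windows for 9 of the genes (not Aqp4). The hexamer was found in 3 of the 9 genes (Gfap, Fabp7 and Aldh1l1), against 14% of the 32851 windows of the same length, and the STAT site in Slc1a3 and in 1 of 2 windows of Aldoc, against 7.02%. The direct repeat of the hexamer with a spacing of 4 bases, of which the hexamer is a part, and the palindromic NFI site were found in none of the 10 windows. They were present in 0.0152% and 0.0365% of all windows. Neither the hexamer nor the STAT site was found for Ttyh1, Slc1a2 and S100b, which were highest on the untreated 24 h array described below. Gja1, which was not highest there, had neither as well. A link between these sites and the signals was not tested.

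The genes stood out on 1 array, that of the untreated culture at 24 h. Aqp4 was at 63.6, 21.4, 1054 and 39.1 in the untreated cultures at 6, 16, 24 and 48 h and at 76.8, 16.8, 45.8 and 39.1 with T3. The untreated 24 h signal was thus 13.7 times the highest of the other 7 arrays, and no other of the 18015 probe-sets that passed the filter on low signals exceeded its other arrays by as much. Its remaining probe-sets, both below the filter, were also highest there, at 8.92 and 3.12 times the highest of the other 7. At 24 h the T3 culture differed from the untreated one by -4.52 in log2 signal. The differences of the 6, 16 and 48 h pairs were 0.27, -0.35 and 0.00.

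Ttyh1 was at 79.3, 43.1, 497 and 45.3 without T3 and at 84.8, 44.5, 46.6 and 45.4 with T3. Apart from the untreated 24 h array, the paired arrays of each time point lay close together, with log2 differences of 0.10, 0.05 and 0.00 at 6, 16 and 48 h against -3.41 at 24 h. Gfap was at 21.6, 15.5, 216 and 19.5 without T3 and at 28.2, 11.9, 25 and 19.0 with T3, and the median signal of an array was 14.8 to 17.7. Gfap did not reach the filter, but its 3 probe-sets had the same form, with the untreated 24 h signal 5.38 to 7.66 times the highest of the other 7.

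**Figure D1:**
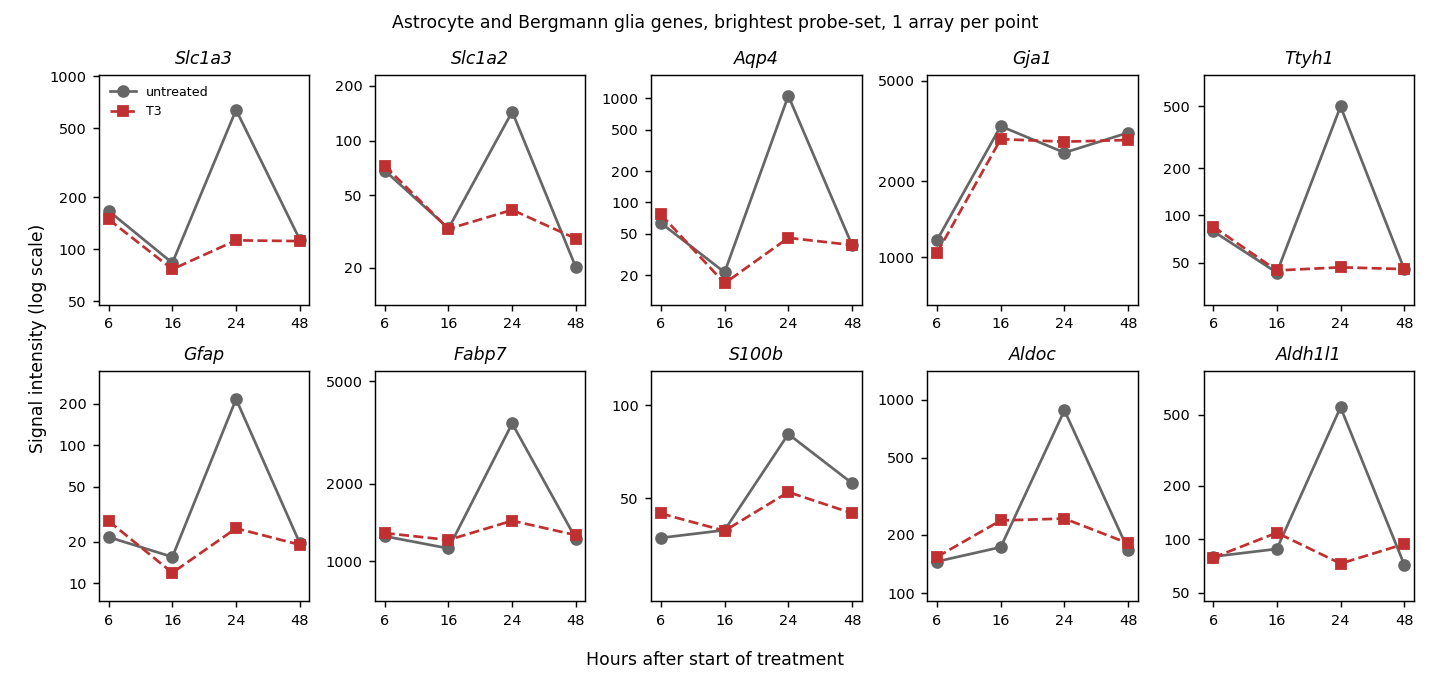
Signal intensity (log axis, with a separate range in each panel) of the brightest probe-set of the 10 genes against the hours of treatment, with grey circles for untreated and red squares for T3 cultures, 1 array per point. In 9 of the 10 panels the untreated 24 h point is the highest, and Gja1, at 2595 there, is the exception.

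The glutamate transporters followed the same course. Slc1a3 was at 166.5, 83.3, 639 and 114 without T3 and at 149, 76.6, 112.5 and 111 with T3. All 3 of its kept probe-sets were highest on the untreated 24 h array, by 2.23 to 3.84 times over the next array. Slc1a2 was at 68.4, 32.9, 144 and 20.1 without T3 and at 72.6, 32.7, 41.6 and 28.9 with T3, and its untreated 24 h signal was 1.98 times that of the next array. Of the other 4 probe-sets of Slc1a2, all below the filter, none was highest on that array, and their signals stayed under 54 on all 8 arrays.

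The metabolic enzymes were also highest there. Aldh1l1 was at 79.9, 88.2, 552 and 72.0 without T3 and at 78.8, 109, 73.0 and 94.0 with T3, and Aldoc at 146, 173, 882 and 167.5 without T3 and at 154, 237.5, 243 and 181 with T3. Aldh1l1 had its untreated 24 h signal 5.07 times above the next array and Aldoc 3.63 times. The T3 culture at 24 h was the highest of the other 7 arrays for Aldoc and the sixth of them for Aldh1l1.

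Fabp7 had high signals throughout, at 1249, 1120, 3423 and 1221 without T3 and at 1285, 1208, 1435 and 1261 with T3. Without the untreated 24 h array its signals spanned 1120 to 1435, and that array stood 2.39 times above them. S100b moved least of the 9 genes that were highest on this array, as its untreated cultures gave 37.2, 39.4, 80.6 and 55.9 and its T3 cultures 44.6, 39.2, 52.3 and 44.7. Its ratio over the next array was 1.44.

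Of the 9 genes that passed the filter, 6 (Aqp4, Ttyh1, Aldh1l1, Slc1a3, Aldoc and Fabp7) were over 2-fold above the highest of the other 7 arrays in the untreated 24 h culture, against 1.45% of all kept probe-sets, and 8 were above it by any amount, against 18.7%. All 9 would also have reached the filter's mean log2 signal of 4.95 on the other 7 arrays alone, so none was kept through this array. In the 24 h pair 7 of the 9 were over 2-fold lower with T3, the same 6 and Slc1a2, against 5.16% of all kept probe-sets, and none was over 2-fold higher, against 3.67%. The median log2 difference of the 9 at 24 h was -1.86, and that of all kept probe-sets was 0.05. These counts and medians rest on 1 array per condition and on genes chosen with earlier results of these arrays known.

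At the other time points the 9 genes differed little between T3 and untreated cultures. Their log2 differences lay between -0.17 and 0.27 at 6 h, between -0.35 and 0.46 at 16 h and between -0.32 and 0.52 at 48 h. No gene was beyond 2-fold at these times, against 0.527% higher and 0.328% lower of all kept probe-sets in the 6 h pair. The 16 h pair had 0.433% higher and 0.305% lower, and the 48 h pair 0.833% and 0.344%. The highest value was that of Slc1a2 at 48 h and the lowest that of Aqp4 at 16 h, both at signals under 40.

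**Figure D2:**
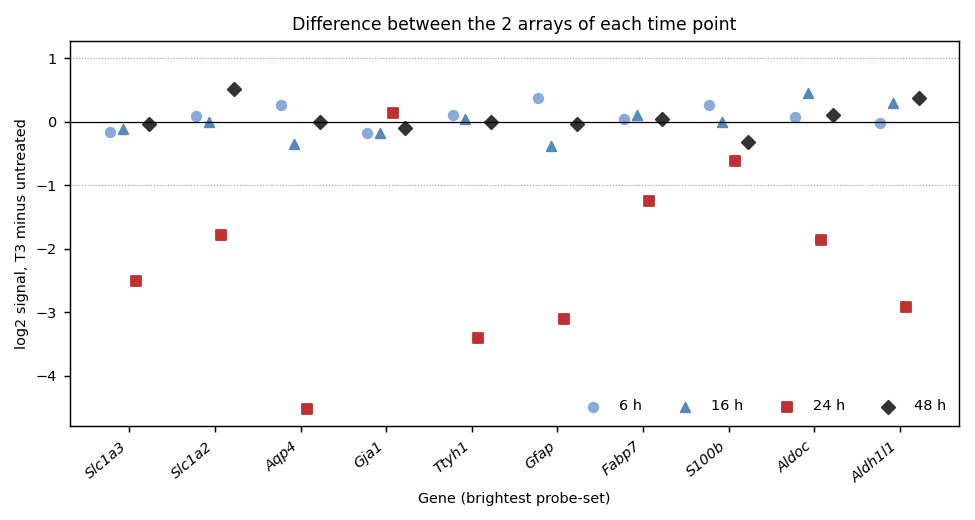
Difference in log2 signal between the T3 and the untreated array of each time point for the brightest probe-set of the 10 genes, with dotted lines at 2-fold. The 24 h squares run from -4.52 for Aqp4 to 0.14 for Gja1, while all points of 6, 16 and 48 h lie within 2-fold.

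Over the 4 pairs together, none of the 9 genes passed the test for T3 by limma with the time point as a block (adjusted p 0.815 to 0.862, and 0 at an unadjusted p under 0.05). The log2 effects ran from -1.15 (SE 0.73) for Aqp4 and -0.82 (SE 0.56) for Ttyh1 to -0.07 (SE 0.07) for Gja1. The error here is the spread of the T3 difference over the 4 time points, so a difference at 24 h alone enlarges it. The share of kept probe-sets called was 0% in either direction, and 985 of 18015 had an unadjusted p under 0.05. When the 24 h pair was left out, the effects of the 9 genes lay between -0.14 and 0.22 (smallest adjusted p 0.669), 4 of them below 0. A T3 difference that changes steadily with the log2 of the hours was not found either, with slopes of -0.46 to 0.05 (adjusted p = 1 for each by limma). In this fit, too, 0% of the kept probe-sets were called in either direction, and 245 of 18015 had an unadjusted p under 0.05.

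Gja1 was the member with a course of its own. It was at 1170.5, 3301, 2595 and 3111 without T3 and at 1042, 2934, 2868 and 2911 with T3. Both 6 h signals lay below all later ones, and the untreated 24 h signal was the lowest of the later 6. The same order was seen in 4 of its 5 kept probe-sets. A sixth probe-set, below the filter, had signals of 15 to 60.2. At 24 h the T3 array was above the untreated one, by 0.14 to 0.61 in log2 signal over the 5 kept probe-sets. In the other pairs all 5 were lower with T3, with log2 differences of -0.59 to -0.13 at 6 h, -0.25 to -0.14 at 16 h and -0.35 to -0.07 at 48 h. When the 24 h pair was left out, their T3 effects were -0.40 to -0.14, which did not pass (limma, unadjusted p 0.0173 to 0.0277, adjusted p 0.669 to 0.674). The probe-sets read the same RNA and are not independent of each other.

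In a limma fit of signal against log2 hours that also held treatment and took the 8 arrays as independent, Gja1 rose by 0.48 per doubling (SE 0.11, adjusted p = 0.0274), and 10.6% of all kept probe-sets rose. The fifth kept probe-set, with signals of 55.2 to 103, had a slope of 0.06 (adjusted p = 0.725), and the other 3 had slopes of 0.74 to 0.78 that passed. The rise of Gja1 lay between 6 and 16 h, and without the 6 h pair the slope was -0.01 (adjusted p = 0.974). The slope was 0.73 without the 48 h pair, but did not pass there (adjusted p = 0.129). When time points entered as a random block, the brightest probe-set no longer passed (adjusted p = 0.0658), nor did 2 of the other 3 (0.0639 and 0.0582), while the third did (0.0474), with 1.75% of all kept probe-sets rising and 0.422% falling. Cultures of 1 time point share a batch of cells, and the sources used here do not say whether time points did, so the hours in culture and the preparation of the cells cannot be told apart.

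**Figure D3:**
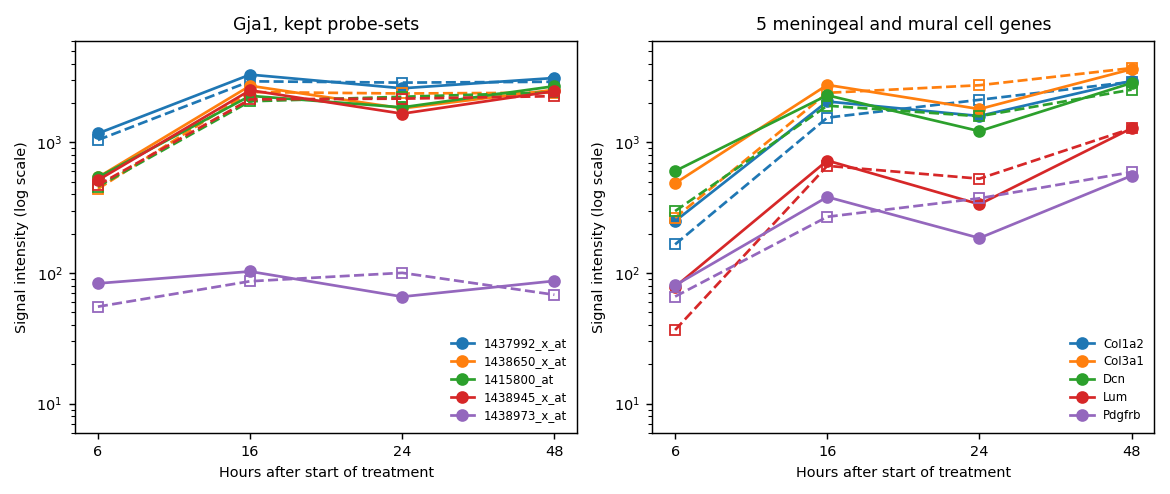
Signal intensity (log axis) against the hours of treatment, with filled circles and solid lines for untreated and open squares and dashed lines for T3, 1 array per point. The left panel holds the 5 kept probe-sets of Gja1. The right panel holds Col1a2, Col3a1, Dcn, Lum and Pdgfrb, picked from the 10 vascular and meningeal genes. All but the dimmest Gja1 probe-set (55.2 to 103) are lowest at 6 h, as are the 5 genes on the right. Of all 10 listed genes, 7 had both 6 h signals below the later arrays other than untreated 24 h, against 24.2% of all kept probe-sets. Acta2, Cldn5 and Kdr, not shown, did not.

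Connexin 43 is made not only by astrocytes but also by meningeal and mural cells. All 10 vascular and meningeal genes were kept, and their summed signal was 2051 to 2540 at 6 h, 7183 on the untreated 24 h array and 9358 to 16325 on the other 5 arrays. Of these 10 genes 8 rose over the hours and none fell, against 10.6% and 8.56% of all kept probe-sets. With time points as a random block 5 of the 8 passed (1.75% of all), and Dcn, Pdgfrb and Acta2 did not (adjusted p 0.0694, 0.057 and 0.0796 by limma). Col1a2, a chain of type I collagen, was at 249.4, 2056, 1591 and 2958 without T3, with its untreated 24 h signal below those at 16 and 48 h, as for Gja1. This order was not particular to the vascular and meningeal genes. Among other genes listed for astrocytes, Gjb6 was at 13.5, 373, 180 and 700.5 without T3 and Clu at 709, 2553.5, 1221 and 2593. Slc4a4, in contrast, was highest of its untreated signals at 24 h, at 356. The part of vascular and meningeal cells in the signal of Gja1 was not tested. The 5 genes whose course over the 8 arrays was most like that of Gja1 (r 0.990 to 0.994, a description over arrays that share batches) were Chchd10, Perp, Tmem88, Col4a4, a chain of basement membrane collagen, and the bicarbonate transporter Slc4a10.

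None of the other 8 kept members passed the test over the hours, with slopes of -0.40 for Slc1a2 to 0.18 for Aldoc (smallest adjusted p 0.257). Slc1a2 passed without the 24 h pair, falling by 0.51 per doubling of the hours (adjusted p = 0.00917). In that fit 23.8% of all kept probe-sets fell and 19.4% rose. Its signals at 6 h, 68.4 and 72.6, lay above those of the 5 later arrays other than untreated 24 h, at 20.1 to 41.6. Aqp4, Ttyh1 and Slc1a3 had both 6 h signals above those later arrays as well. These 4 of 9 genes compare with 26.2% of all kept probe-sets, and the 2 with both 6 h signals below them, Gja1 and Aldoc, with 24.2%, a count made after the values had been seen.

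The likeness in course between the 10 genes was lower when the untreated 24 h array was left out. Over the 8 arrays each gene's log2 signal correlated with the mean of the other kept members at 0.76 (Slc1a2) to 0.99 (Gfap and Fabp7), except for Gja1, at -0.11. Over the 7 arrays without untreated 24 h, Gfap (0.90), Slc1a3 (0.73), Fabp7 (0.72), Aqp4 (0.62), Ttyh1 (0.55) and Slc1a2 (0.33) stayed positive. S100b was at -0.01, Aldoc at -0.44, Aldh1l1 at -0.66 and Gja1 at -0.89. The genes most like the mean of the kept members over 8 arrays were Fbxo2, a subunit of a ubiquitin ligase (r = 0.991), Ddah1, which degrades methylated arginines (0.981), Tmem229b (0.979), 2810459M11Rik (0.977) and Olig1, a transcription factor of the oligodendrocyte lineage (0.975). Fbxo2 was at 273 on the untreated 24 h array and at 25.9 to 43.4 on the others. None of these 5 was among the 5 most like over the 7 remaining arrays (Zfp869, Cdk14, Apbb2, Plekho1 and Trpc4ap).

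Other genes of astrocytes were mixed on the untreated 24 h array. Of 32 with a probe-set of their own, 22 passed the filter. There 7 of the 22 were above the highest of the other 7 arrays, against 18.7% of all kept probe-sets, and 2 were over 2-fold above it, against 1.45%. These 2 were Bcan, a proteoglycan of the brain's matrix, at 659 against 119 to 228, and Ednrb, an endothelin receptor, at 1059 against 263 to 502. In the 24 h pair 4 of the 22 were over 2-fold lower with T3 (the same 2, Sparcl1 and Atp1b2), against 5.16% of all kept probe-sets, with a median log2 difference of -0.41 against 0.05 for all kept probe-sets.

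Of the 10 that did not pass the filter, 4 were over 2-fold above the other arrays. The share of all probe-sets below the filter that were so was not counted, so whether 4 of 10 is unusual cannot be said. Kcnj10, the potassium channel of astrocytes, was at 121 against 12.7 to 29.3, and Mlc1, a membrane protein of astrocyte endfeet, at 161 against 3.6 to 36.9. Its partner Hepacam, an adhesion molecule, was at 68.5 against 11.3 to 25, and Ntsr2, a neurotensin receptor, at 25.1 against 4.0 to 11. Glul, which makes glutamine from glutamate, was not raised, at 990 on the untreated 24 h array and 636 to 1636 on the others.

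Over the hours 7 of the 22 rose and none fell, against 10.6% rising and 8.56% falling of all kept probe-sets. They were the connexin Gjb6 (slope 1.62 per doubling, adjusted p = 0.0117), Plpp3 (1.02), Slc39a12 (0.94), Mfge8 (0.79), the bicarbonate transporter Slc4a4 (0.67), the growth factor receptor Fgfr3 (0.41) and the lipid carrier Apoe (0.37), by limma. With time points as a random block 4 of them rose, against 1.75% of all. Both 6 h signals lay below the 5 later arrays other than untreated 24 h in 16 of the 22 and above them in 2, against 24.2% and 26.2% of all kept probe-sets.

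Genes of reactive astrocytes rose over the hours in 6 of 7 kept cases, against 10.6% of all kept probe-sets. Lcn2, a secreted iron-binding protein, was at 775, 2771, 2500 and 3417 without T3 and at 904, 2971, 3223 and 3046 with T3 (slope 0.65, adjusted p = 0.0157 by limma). With time points as a random block 3 of the 7 rose, against 1.75%. On the untreated 24 h array none of the 7 was over 2-fold above the other arrays, against 1.45% of all kept probe-sets. S1pr3, a receptor for sphingosine phosphate and the 1 gene above its other arrays (18.7% of all), was at 354 against 80.1 to 260. In the 24 h pair the median log2 difference of the 7 was 0.58, against 0.05 for all kept probe-sets. Beyond 2-fold in that pair were S1pr3, lower with T3 (-1.72), and Cp, higher with T3 (1.11), against 5.16% lower and 3.67% higher of all. Several of the reactive astrocyte genes are also made by fibroblasts and vascular cells.

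Among 7 kept genes of neural stem cells and radial glia none was over 2-fold above the other arrays in the untreated 24 h culture. Above them by less were 2 of the 7, Sox2 and Notch1, against 18.7% of all kept probe-sets above by any amount. Nes, Vim, Hes1, Prom1 and Msi1 were below the highest of their other arrays. Sox2, a transcription factor of stem cells and glia, was at 527 on the untreated 24 h array against 147 to 278. Hes5, a target of Notch signalling that did not reach the filter, was at 289 against 5.1 to 10.4. Over the hours 2 of the 7, the filament genes Nes and Vim, rose (slopes 0.65 and 0.15, adjusted p 0.00798 and 0.0196 by limma), and 1, the RNA-binding protein gene Msi1, fell (-0.33, adjusted p = 0.0458), against 10.6% and 8.56% of all kept probe-sets. With time points as a random block Nes passed (adjusted p = 0.044), whereas Vim (0.0837) and Msi1 (0.235) did not.

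**Figure D4:**
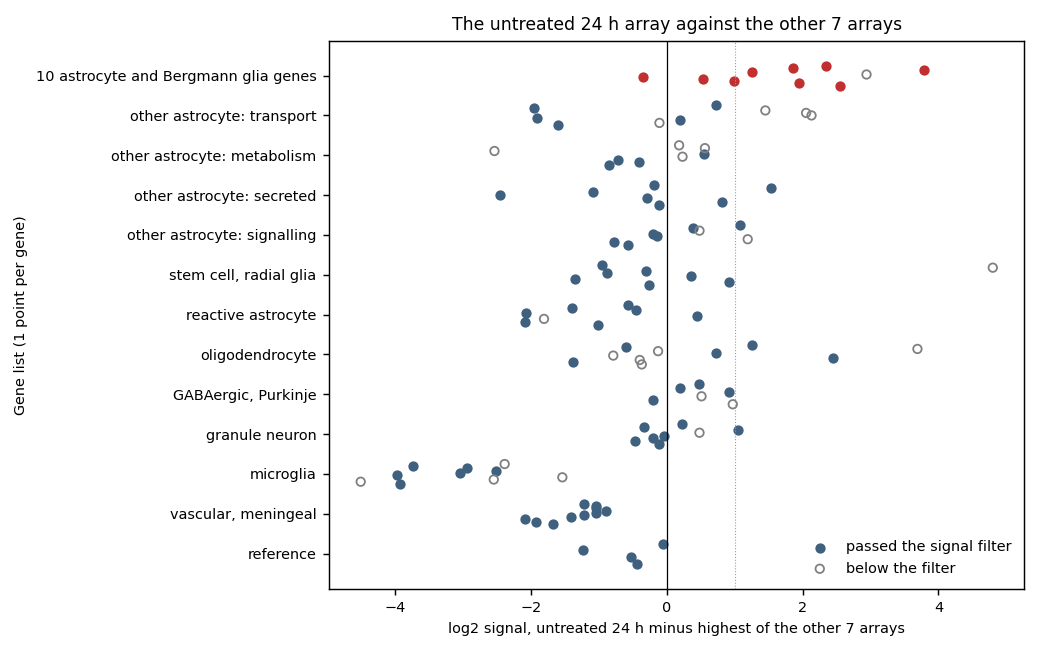
Log2 signal on the untreated 24 h array minus the highest of the other 7 arrays, 1 point per gene and 1 row per gene list, with filled points for genes that passed the signal filter, open points for those below it, a solid line at 0 and a dotted line at 2-fold. The 10 astrocyte and Bergmann glia genes (red if kept) reach from -0.35 for Gja1 to 3.78 for Aqp4, and no microglia, vascular or reference gene lies above 0.

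Genes of other cell types moved on the same array. Of 5 kept oligodendrocyte genes 2, Olig1 and the myelin enzyme Cnp, were over 2-fold above the other arrays, and their summed signal was 2437 against 866 to 1264 on the other 7. Gpr17, a receptor of oligodendrocyte precursors below the filter, was at 124 against 1.2 to 9.6. Pdgfra, which also marks precursors, was at 242, the lowest of its 8 signals, but the T3 array at 24 h was about as low, at 245. Mog, a protein of mature myelin, was at 0.4 to 4.5 on all arrays. None of the 4 kept genes of GABAergic and Purkinje cells was over 2-fold above, and 3 of them were above by less, with a sum of 1632 against 139 to 1258. Of 7 granule neuron genes Cbln1 was over 2-fold above, and their sum was 9617 against 2182 to 9746. In the 24 h pair all 4 GABAergic and Purkinje cell genes, 3 of the 5 oligodendrocyte genes and 3 of the 7 granule neuron genes (Atoh1, Barhl1 and Cbln1) were over 2-fold lower with T3, against 5.16% of all kept probe-sets.

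Microglia, vascular and meningeal genes were not raised on this array. None of the 6 kept microglia genes was above its other arrays, against 18.7% of all kept probe-sets. Their sum of 366, of which Cd68 gave 245, was the lowest, against 551 to 2404. The T3 array at 24 h had the next lowest sum. In the 24 h pair 3 of the 6 microglia genes (Cx3cr1, C1qa and C1qb) were over 2-fold lower with T3 too, against 5.16% of all kept probe-sets. Their signals in that pair were low, at 3.5 to 20.5. The 4 kept reference genes had sums of 4403 on the untreated 24 h array and 4403 to 5050 on the others. Actb, at 3284 on that array, made up most of the sum. Each of the 4 lay within the range of its other arrays there. Over the hours Hprt (806 to 1314) and Gusb (75.8 to 240) rose (adjusted p 0.0292 and 0.0323 by limma), against 10.6% of all kept probe-sets. With time points as a random block neither passed (0.128 and 0.096). The part of the other cell types in the signals of the astrocyte and Bergmann glia genes on this array was not tested. Since it is a single array, the cells or RNA of that culture and its hybridization cannot be told apart from the absence of added T3 at 24 h.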

How the data were processed

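RNA of 8 cultures was hybridized to Affymetrix mouse whole-genome arrays after amplification. The table deposited by the authors gives, for each array, a linear signal intensity of every probe-set, made with GCOS and MAS5 per the labels, with a mean of 100 on every array once the highest and lowest 2% of probe-sets are left out. The version of GCOS is not given in the sources used here, and the number of arrays limits the precision. Unused value columns numbered 0.

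After 64 control probe-sets were left out, 45037 remained, of which 34945 had 1 symbol, 932 several and 9160 none. A floor of 1 was applied before log2 was taken. Probe-sets at or above the 60th percentile of the mean log2 signal (4.95) were kept (18015 probe-sets, 10194 genes), and the brightest probe-set stood for a gene. The filter, and the floor at low signals, can change which genes were tested and by how much they differ.

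T3 and hours were tested with limma 3.58.1 in R 4.3.3 (moderated variances with a trend, Benjamini-Hochberg over all kept probe-sets, threshold 0.05), with the time point as a block for T3, since the methods pair cultures by cell batch. Deviations from the treatment mean correlated within pairs at 0.905, 0.713, 0.520 and 0.878 for 6, 16, 24 and 48 h, which the shared hours alone could give. P values measure the spread between these arrays and not between replicate cultures, as there was 1 array per condition. For the T3 test this is the spread of the T3 difference over the 4 time points. A difference at 1 time point alone widens it, so this test is not suited to find such a difference. The fits were tested on simulated data, where arrays of a time point shared a component only for the T3 fit. That simulation therefore cannot show how shared batches affect the fit against the hours. Single time points were described at 2-fold with no test.

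The genes named are the 10 members, genes of 12 other lists, and the 5 most alike in course. Members and lists were chosen with earlier results of these data known. Python 3.11.15, pandas 2.3.3, numpy 2.4.6 and matplotlib 3.10.9 were used for counts and plots. Alternatives were other normalizations, offsets, filters, blocks and time points, and counts at 6 h and the genes most like Gja1 were added after the data had been seen. Detection calls and Q-RT-PCR were not used here.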

Additional observations from a re-analysis of the deposited data

How the results depend on the processing

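The count of 0 members with a T3 effect was found under every alternative run, among them no replicate block (0), and so was that of 0 with a T3 difference changing with the hours. The 1 member that changed with the hours, Gja1, was not called with no filter (0 members, adjusted p = 0.0806), with time points as a random block (0), with hours in place of their log2 (0) or on untreated arrays alone (0), and leaving out a time point gave 0 to 2 members. Without the 6 h pair no member passed and Gja1 had a slope of -0.01, without the 48 h pair none passed (Gja1 0.73, adjusted p = 0.129), and without the 24 h pair Slc1a2 (-0.51) joined Gja1. The 7 members over 2-fold lower with T3 at 24 h were 4 of 5 tested with a filter at the 75th percentile and 1 of 2 with the mean of all probe-sets of a gene, and the 6 over 2-fold above the other arrays were 1 of 2 with that mean, where fewer members reach the filter. Of the 5 genes most like the members, 0 remained without the untreated 24 h array.

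Effects that did not pass changed sign in several cases, for which the cause was not tested. Leaving out 1 time point, T3 effects ranged from -0.57 to 0.20 for Slc1a2, -1.12 to 0.05 for Ttyh1, -0.39 to 0.07 for Fabp7, -0.56 to 0.22 for Aldoc and -0.88 to 0.22 for Aldh1l1, each positive only without the 24 h pair. Slopes ranged from -0.15 to 0.19 for Slc1a3, -0.26 to 0.43 for Aqp4, -0.28 to 0.24 for Ttyh1, -0.04 to 0.31 for Fabp7, -0.28 to 0.72 for Aldoc, -0.28 to 0.59 for Aldh1l1 and -0.01 to 0.73 for Gja1. On untreated arrays alone the slopes of Slc1a3 (0.04), Aqp4 (0.20) and Ttyh1 (0.02) turned, with 32 added to every signal that of Aqp4 (0.01), and with hours in place of log2 hours that of Aldh1l1 (-0.0003). Low signals, such as those of Gfap, limit what the ratios can show.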
